A study of Mus musculus with 6 samples.

Results

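The 5 uroplakin genes Upk1a, Upk1b, Upk2, Upk3a and Upk3b were described in sorted cells of the newborn mouse bladder. Their members on the array were all probe sets whose annotation gave 1 of these symbols and no other, which was 9 of 45037 probe sets and 5 of 18193 genes. Upk1b had 4 probe sets, Upk3b had 2, and Upk1a, Upk2 and Upk3a had 1 each. Cells came from male FVB/N mice at postnatal day 2 that carried both SMGA/EGFP, a green reporter driven by the promoter of smooth muscle gamma actin, and SMAA/EYFP, a yellow reporter driven by the promoter of smooth muscle alpha actin. Cells positive for EGFP and negative for EYFP (EGFP+EYFP-, 3 arrays) were set against cells positive for both (EGFP+EYFP+, 3 arrays). Both populations are labelled as detrusor, which is the muscle of the bladder wall, and as unpooled. The labels do not say whether the 3 arrays of a group stand for 3 animals, and the p-values cover only the variation between these arrays, part or all of which may be technical. Each array gave 1 signal per probe set in arbitrary units.

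Uroplakins are membrane proteins of the urothelium, the epithelium that lines the bladder. They assemble into rigid plaques on the apical face of the superficial umbrella cells, where they form part of the permeability barrier against urine. Upk1a and Upk1b belong to the tetraspanin family and are needed by their partners to leave the endoplasmic reticulum, Upk1a pairing with Upk2 and Upk1b with Upk3a or Upk3b. Upk3b is also a marker of mesothelium, the layer that covers the outer surface of organs in the body cavity, and Upk1b is found in some mesothelium as well.

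Upk1b and Upk3a were higher in the EGFP+EYFP- arrays, by 9.02-fold and 6.74-fold. Upk2 and Upk1a were higher by smaller amounts that did not pass the threshold, and Upk3b had no settled direction, since its sign turned when 1 array was left out. The 2 uroplakins that passed out of 5 stood beside a share of 4.38% for all 13464 genes tested that were higher past the threshold in EGFP+EYFP- arrays. The threshold was an adjusted p of 0.05 in limma, where the adjustment of Benjamini and Hochberg ran over all genes and the brightest probe set stood for each gene. Fold changes are EGFP+EYFP- over EGFP+EYFP+ after an offset of 25.042 was added to each signal, and for dim genes they come out smaller than the change in signal. All 5 genes passed the filter on dim genes, and on the probe set used for each gene the signal was above the filter level of 87.6 on every array, so no gene entered through the brighter group alone. In RNA from a sorted population, fewer cells of a type and less RNA per cell cannot be told apart.

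**Figure D1:**
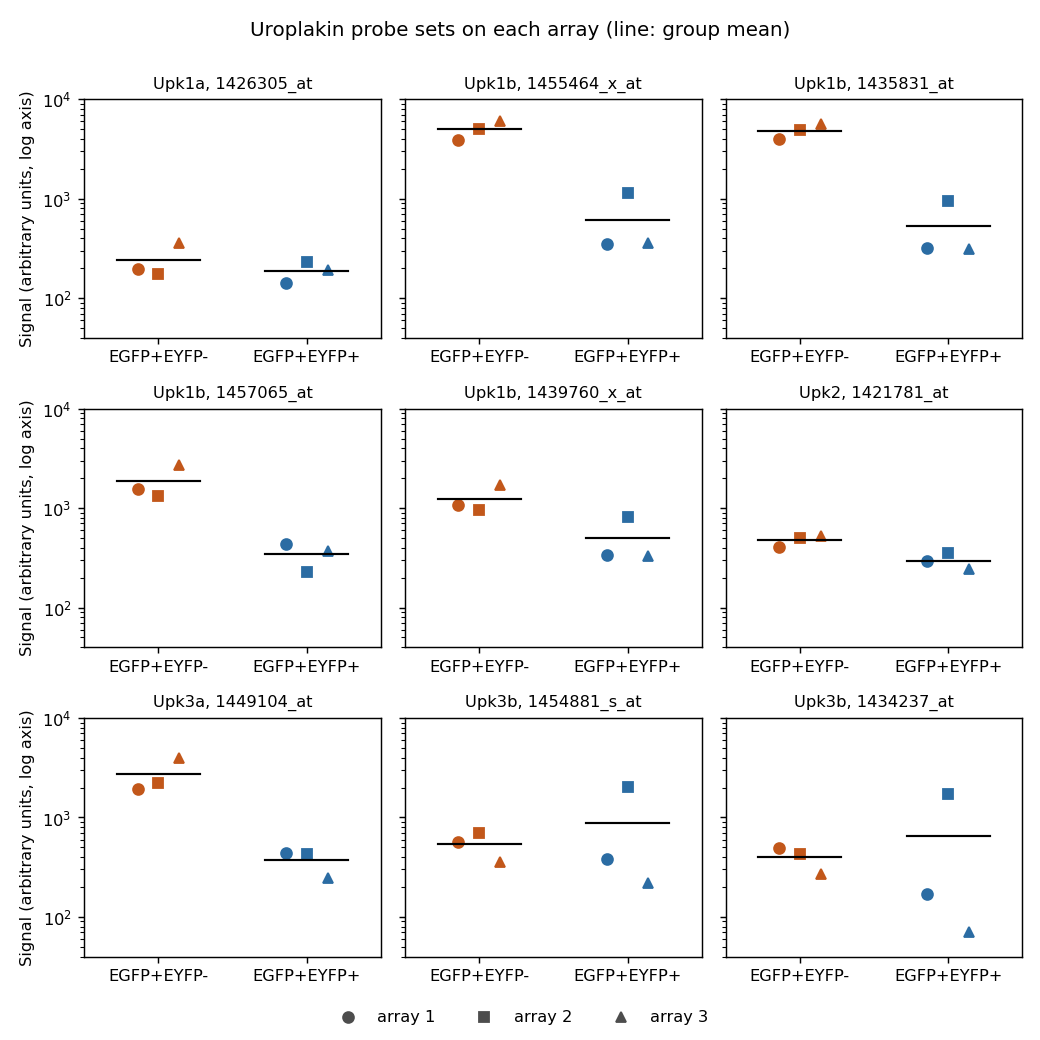
Signal of each uroplakin probe set on the 6 arrays (vertical log axis, arbitrary units), with EGFP+EYFP- arrays on the left, EGFP+EYFP+ arrays on the right, a symbol for each array number and a line at each group mean. The groups do not overlap for the 4 Upk1b probe sets, Upk2 and Upk3a, and both Upk3b probe sets show EGFP+EYFP+ array 2 far above the other arrays.

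Upk1b, the tetraspanin partner of the type 3 uroplakins, gave the largest difference of the family where the brightest probe set stood for each gene. Averaged over probe sets, its log2 fold change was 2.54, below the 2.75 of Upk3a, which has 1 probe set. On its brightest probe set (1455464_x_at) the signal was 3906, 5076 and 6098 in the EGFP+EYFP- arrays, against 352, 1139 and 357 in the EGFP+EYFP+ arrays. The groups did not overlap, and EGFP+EYFP+ array 2 was the highest of its group. The log2 fold change in limma was 3.17 (SE 0.44, adjusted p = 0.0022), with a 95% interval of 2.19 to 4.16. Without EGFP+EYFP+ array 2 the fold was 13.1 (limma adjusted p = 0.000667).

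A second Upk1b probe set, 1435831_at, read 3967, 4943 and 5600 in EGFP+EYFP- arrays, against 317, 949 and 311 in EGFP+EYFP+ arrays. Both of these probe sets were designed on the same source sequence, so they are not independent readings. On 1457065_at the signal was 1564, 1310 and 2687 in EGFP+EYFP- arrays, against 435, 228 and 369 in EGFP+EYFP+ arrays. Here EGFP+EYFP+ array 2 was the lowest of its group, unlike on the other Upk1b probe sets. The fourth, 1439760_x_at, gave 1075, 947 and 1693 in EGFP+EYFP- arrays, against 334, 819 and 332 in EGFP+EYFP+ arrays.

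All 4 Upk1b probe sets were thus higher in EGFP+EYFP- arrays without overlap, but by unequal amounts. Of these, 1455464_x_at and 1439760_x_at carry a suffix treated here as shared, while 1435831_at and 1457065_at do not. In a limma fit over all 45037 probe sets, in which 1.07% were higher past the threshold in EGFP+EYFP- arrays and 7.78% were higher without overlap, the folds were 9.99 for 1435831_at, 9.02 for 1455464_x_at, 5.0 for 1457065_at and 2.57 for 1439760_x_at. The first 3 passed (limma adjusted p = 0.0085, 0.0122 and 0.0263) and the last did not (0.252). This wider fit held fewer calls than the fit over genes. In it 1455464_x_at missed the threshold without EGFP+EYFP- array 2 or array 3 (adjusted p = 0.0677 and 0.0751), and so did 1435831_at (0.0505 and 0.0556). The call for 1457065_at was lost without any 1 array, with adjusted p between 0.0519 and 0.138. In the fit over genes, the call for Upk1b held without each array in turn, with adjusted p of at most 0.0168.

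Upk3a, a uroplakin with 1 membrane span that pairs with Upk1b in the plaque, followed next. Its signal was 1933, 2238 and 3953 in EGFP+EYFP- arrays, against 443, 431 and 246 in EGFP+EYFP+ arrays. The lowest EGFP+EYFP- value was more than 4 times the highest EGFP+EYFP+ value, and EGFP+EYFP+ array 2 did not stand apart here. The log2 fold change in limma was 2.75 (SE 0.39, adjusted p = 0.00223), with a 95% interval of 1.89 to 3.61. Among the 13464 genes tested, Upk1b ranked 172 and Upk3a 175 by p. The call for Upk3a held without each array in turn (adjusted p of at most 0.0155). Over all probe sets its adjusted p was 0.011, and 0.0538 and 0.0643 without EGFP+EYFP- array 2 or array 3.

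Upk2, the partner of Upk1a and a common marker of urothelial differentiation, read 410, 495 and 523 in EGFP+EYFP- arrays, against 296, 350 and 242 in EGFP+EYFP+ arrays. The groups did not overlap, but the difference was small. Its log2 fold change in limma was 0.65 (SE 0.36, adjusted p = 0.408), with a 95% interval of -0.14 to 1.44. Groups that did not overlap with EGFP+EYFP- higher were found for 11.9% of all genes tested, and for 3 of the 5 uroplakins.

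Upk1a, the tetraspanin partner of Upk2, read 198, 173 and 362 in EGFP+EYFP- arrays, against 141, 228 and 191 in EGFP+EYFP+ arrays. The groups overlapped, and EGFP+EYFP- array 3 was the highest value. The log2 fold change in limma was 0.30 (SE 0.42, adjusted p = 0.801), with a 95% interval of -0.64 to 1.25. That interval leaves out a difference as large as the one measured for Upk1b or Upk3a, but not one of about the size measured for Upk2.

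The fold changes of the partners Upk1b and Upk3a lay closer to each other than to those of the partners Upk1a and Upk2. The log2 difference of Upk1a minus Upk1b within an array changed by -2.87, taken as EGFP+EYFP- minus EGFP+EYFP+, and that of Upk1a minus Upk3a by -2.45. Upk1b minus Upk2 gave 2.52 and Upk2 minus Upk3a gave -2.10. In these 4 pairs the groups did not overlap, which gives an exact two-sided permutation p of 0.1, the smallest that 3 arrays against 3 allow, and 0.15 after adjustment over the 6 pairs. The remaining pairs, Upk1b minus Upk3a (0.42, exact permutation p = 0.6) and Upk1a minus Upk2 (-0.34, exact permutation p = 0.4), differed by less. These 6 comparisons were chosen after the values were seen.

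**Figure D2:**
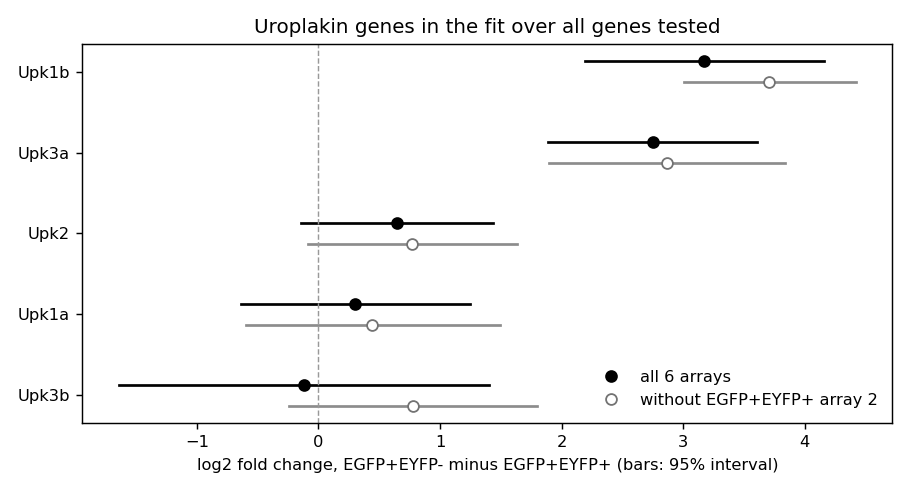
Log2 fold change of each uroplakin gene (horizontal axis, EGFP+EYFP- minus EGFP+EYFP+) with its 95% interval from the limma fit over all genes tested, with all 6 arrays (filled) and without EGFP+EYFP+ array 2 (open). Upk1b (3.17) and Upk3a (2.75) lie clear of 0 in both, and Upk3b is at -0.12 with all arrays and at 0.78 without that array.

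Upk3b, the uroplakin shared with mesothelium, differed from Upk1b and Upk3a in its pattern. On the brighter of its probe sets (1454881_s_at) the signal was 569, 692 and 353 in EGFP+EYFP- arrays, against 385, 2035 and 220 in EGFP+EYFP+ arrays. On the other (1434237_at) it was 494, 431 and 272 in EGFP+EYFP- arrays, against 170, 1721 and 70.6 in EGFP+EYFP+ arrays. On both, EGFP+EYFP+ array 2 gave the highest value of all 6 arrays and EGFP+EYFP+ array 3 the lowest. Both probe sets were designed on the same source sequence, and the suffix of the first marks it as shared between transcripts.

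EGFP+EYFP+ array 2 exceeded the mean of the other EGFP+EYFP+ arrays 6.72-fold on the first Upk3b probe set and 14.3-fold on the second. The coefficient of variation was accordingly 31.9% in EGFP+EYFP- and 114% in EGFP+EYFP+ arrays on the first, and 28.7% and 142% on the second. With all arrays the log2 fold change of Upk3b was -0.12 (SE 0.69, limma adjusted p = 0.963), with a 95% interval of -1.64 to 1.40. Without EGFP+EYFP+ array 2 it was 0.78 (SE 0.45, limma adjusted p = 0.472), with an interval of -0.24 to 1.80, and without EGFP+EYFP- array 3 it was 0.14. The brighter probe set and the other also differed in sign with all arrays, at -0.12 and 0.37. Among the EGFP+EYFP+ arrays, 7 of the 9 uroplakin probe sets were highest in array 2, while this array was the highest of its group for 40.4% of all genes tested.

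Each urothelial uroplakin was set against Upk3b within each array, which removes the scaling of the array. A log2 difference between separate probe sets has no meaning as a level, so only the change of that difference between the groups was read. For Upk1b minus Upk3b it was 2.73, 2.83 and 4.02 in EGFP+EYFP- arrays, against -0.12, -0.82 and 0.64 in EGFP+EYFP+ arrays. The groups did not overlap, and the change was 3.29. For Upk3a minus Upk3b it was 1.72, 1.66 and 3.40 in EGFP+EYFP- arrays, against 0.19, -2.18 and 0.14 in EGFP+EYFP+ arrays. The groups did not overlap here either, and the change was 2.87.

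For both genes the exact two-sided permutation p was 0.1, the smallest possible with 3 arrays a group, and 0.2 after Benjamini-Hochberg adjustment over the 4 pairs. Without EGFP+EYFP+ array 2 the changes were 2.93 for Upk1b and 2.09 for Upk3a. Upk2 minus Upk3b changed by 0.77 (exact permutation p = 0.6) and Upk1a minus Upk3b by 0.43 (exact permutation p = 0.8). Without EGFP+EYFP+ array 2 those changes were -0.01 and -0.33. Without EGFP+EYFP- array 3 that of Upk1a was -0.13. The groups were thus apart for Upk1b and Upk3a with and without that EGFP+EYFP+ array, while the sign for Upk2 and Upk1a turned with single arrays.

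**Figure D3:**
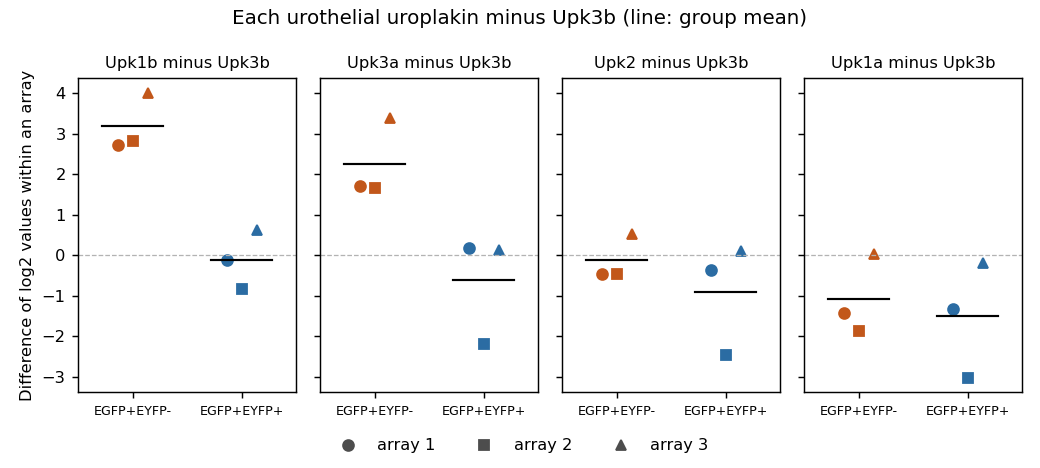
Difference of log2 values within each array (vertical axis) between a urothelial uroplakin and Upk3b, with EGFP+EYFP- arrays on the left, EGFP+EYFP+ arrays on the right and a line at each group mean. The groups are apart for Upk1b (means 3.19 and -0.10) and Upk3a (means 2.26 and -0.62), and overlap for Upk2 and Upk1a.

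The sequences upstream of Upk3a and Upk3b are shown because these related genes differed in their pattern between the groups. They are the 250 bases before the gene start from RefSeq (build GRCm38.p6), in which entries matched 3 of the 5 genes, Upk1a, Upk3a and Upk3b. Capitals mark matches to any of 7 motifs, searched on both strands. The Upk3a window is chr15:85016891-85017140 on the plus strand, and the Upk3b window is chr5:136038246-136038495 on the plus strand.
Upk3a: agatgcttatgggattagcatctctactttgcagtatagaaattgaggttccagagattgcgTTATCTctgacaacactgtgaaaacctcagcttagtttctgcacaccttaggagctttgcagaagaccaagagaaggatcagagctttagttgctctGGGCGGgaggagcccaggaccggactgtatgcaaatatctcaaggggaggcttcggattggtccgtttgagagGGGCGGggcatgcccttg
Upk3b: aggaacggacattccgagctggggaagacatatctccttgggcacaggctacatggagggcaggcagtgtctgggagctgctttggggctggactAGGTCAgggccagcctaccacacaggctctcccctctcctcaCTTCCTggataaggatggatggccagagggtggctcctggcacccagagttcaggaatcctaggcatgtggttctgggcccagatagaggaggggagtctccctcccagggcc

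The Upk3a window held 2 matches to a GC box (GGGCGG, found in 32.7% of 32851 such windows of all genes) and 1 to a GATA motif (AGATAA, 9.99%). The Upk3b window held neither, and had 1 match to an ETS motif (AGGAAG, 29.5%) and 1 to a nuclear receptor core motif (AGGTCA, 14%). A TATA box (TATAAA, 12.4%), a Grainyhead motif (AACCNGTT, 1.79%) and a forkhead motif (TGTTTAC, 3.17%) were in neither window, and the Upk1a window held none of the 7. These matches describe the letters of these windows alone. No 2 of the matches overlapped.

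Other genes of the urothelium were read from lists chosen with earlier results of these data known. Of 14 tested markers of urothelium other than uroplakins, 9 were higher past the threshold in EGFP+EYFP- arrays (4.38% of all genes tested were), none was lower and 5 did not pass. Those 5 were Krt5, Krt14, Epcam, Cldn4 and Cldn7, whose groups overlapped. Their log2 fold changes ran from 0.39 to 1.44 (limma adjusted p of at least 0.279). The median log2 fold change of the 14 was 1.92, against -0.02 over all genes tested. Perp, a desmosomal protein, read 7470, 6940 and 8290 in EGFP+EYFP- arrays, against 535, 720 and 554 in EGFP+EYFP+ arrays. Shh, the Hedgehog ligand made by urothelium, read 2680, 1780 and 3580 in EGFP+EYFP- arrays, against 71.1, 210 and 21.1 in EGFP+EYFP+ arrays. Krt15, a keratin of basal epithelial cells, read 524, 414 and 242 in EGFP+EYFP- arrays, against 7.88, 18.7 and 16.6 in EGFP+EYFP+ arrays. Its log2 fold change in limma was 3.36 (SE 0.44, adjusted p = 0.00164). In EGFP+EYFP+ arrays the mean log2 value was 5.29 for Krt15 and 6.66 for Shh, under the filter level of 6.82. Both are among the 9 and entered the fit through the brighter group.

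The summed signal of the 17 urothelium markers on the array lay between 25907 and 42926 in EGFP+EYFP- arrays, against 5585 to 9290 in EGFP+EYFP+ arrays. None of them was listed at 0, and the 3 below the filter on dim genes were Cldn3, Krt17 and Krt20, the last a keratin of umbrella cells. Among EGFP+EYFP+ arrays the sum was highest in array 2. So was the Upk1b signal on its brightest probe set, but not on 1457065_at, and Upk3a was highest in array 1. Array 2 was the highest of its group for 58.8% of the urothelium markers, 87.5% of the smooth muscle markers and 40.4% of all genes tested. The 9 became 4 without EGFP+EYFP- array 2 or array 3, and 6 with no filter on dim genes. The part of urothelial cells in the uroplakin results was not tested.

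Genes for the transport of uroplakins in vesicles were higher for 2 of 12 tested (4.38% of all genes tested were), none was lower and 10 did not pass, with a median log2 fold change of 0.46. Mal, a proteolipid of apical membrane transport that helps to bring uroplakins to the surface in mouse urothelium, read 2850, 3380 and 4690 in EGFP+EYFP- arrays, against 145, 214 and 4.81 in EGFP+EYFP+ arrays. The groups were far apart, with a log2 fold change in limma of 5.07 (SE 0.68, adjusted p = 0.00173). In EGFP+EYFP+ arrays the mean log2 value of Mal was 6.74, under the filter level of 6.82, so it entered the fit through the brighter group. Snx31, a sorting nexin that binds uroplakins, read 638, 417 and 609 in EGFP+EYFP- arrays, against 67.1, 203 and 92.5 in EGFP+EYFP+ arrays. Its log2 fold change in limma was 2.08 (SE 0.45, adjusted p = 0.0203), and it missed the threshold without any 1 of the EGFP+EYFP- arrays or without EGFP+EYFP+ array 1, with adjusted p between 0.0518 and 0.0921. Sytl2, an effector of Rab27 proteins on secretory vesicles, had a log2 fold change in limma of 1.11 (SE 0.34, adjusted p = 0.0907), which became 1.34 (adjusted p = 0.0422) without EGFP+EYFP+ array 3.

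Transcription factors of the urothelium were higher for 1 of 11 tested, none was lower and 10 did not pass, with a median log2 fold change of 0.45. Beside the 4.38% of all genes tested that were higher, 1 of 11 is not a result about these factors. Foxa1, a forkhead factor of urothelial differentiation, read 1030, 405 and 902 in EGFP+EYFP- arrays, against 141, 183 and 7.92 in EGFP+EYFP+ arrays. In EGFP+EYFP+ arrays its mean log2 value was 6.71, under the filter level of 6.82, so it entered the fit through the brighter group. Its log2 fold change in limma was 2.84 (SE 0.68, adjusted p = 0.0344), and it missed the threshold without any 1 of the EGFP+EYFP- arrays (adjusted p between 0.0564 and 0.129), with offset 5 (0.0676), with no filter on dim genes (0.0671) and with no variance trend (0.078). Grhl3, a Grainyhead factor needed for umbrella cells in mouse, had a log2 fold change of 1.39 (limma adjusted p = 0.226). Rara, a retinoic acid receptor, had -1.77 (limma adjusted p = 0.185), and -2.55 (adjusted p = 0.0381) without EGFP+EYFP- array 3. In EGFP+EYFP- arrays its mean log2 value was 6.11, also under the filter level. The count of higher factors was 3 without EGFP+EYFP+ array 2, where 4.18% of all genes tested were higher past the threshold. These were Foxa1, Ovol1 and Ehf, while Rara was not tested there. In the remaining EGFP+EYFP+ arrays Foxa1 read 141 and 7.92, Ovol1 46 and 28.1, and Ehf 0.98 and 1.85. All 3 thus entered that fit through the brighter group. The count was 2 without EGFP+EYFP+ array 1 or array 3, and 0 without any 1 of the EGFP+EYFP- arrays. All 12 factors on the array were highest in array 2 among the EGFP+EYFP+ arrays (40.4% of all genes tested were).

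The tetraspanin family, to which Upk1a and Upk1b belong, went both ways. Of 24 other members tested, 2 were higher in EGFP+EYFP- arrays (4.38% of all genes tested were), 3 were lower (1.98% of all genes tested were) and 19 did not pass, with a median log2 fold change of -0.12. Tspan2 had a log2 fold change in limma of 2.07 (SE 0.34, adjusted p = 0.00555), and Cd53, a tetraspanin of leukocytes, had 2.65 (SE 0.35, limma adjusted p = 0.00173). Averaged over its probe sets, Cd53 had 1.24 and did not pass (limma adjusted p = 0.123). Tspan8 read 813, 754 and 1760 in EGFP+EYFP- arrays, against 9130, 9760 and 10700 in EGFP+EYFP+ arrays, a log2 fold change in limma of -3.23 (SE 0.33, adjusted p = 0.000491). Tspan13 had -1.38 (limma adjusted p = 0.00304). Tspan11 had -2.56 (limma adjusted p = 0.0441), and missed the threshold without EGFP+EYFP- array 1 or 3, or EGFP+EYFP+ array 1 or 2 (adjusted p between 0.118 and 0.163), and with offset 5 (0.0542), no filter on dim genes (0.0825) or no variance trend (0.0869). In EGFP+EYFP- arrays the mean log2 value of Tspan11 was 6.68, under the filter level of 6.82, so it entered the fit through the brighter group. The difference of Upk1b was thus not a direction shared by the family.

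**Figure D4:**
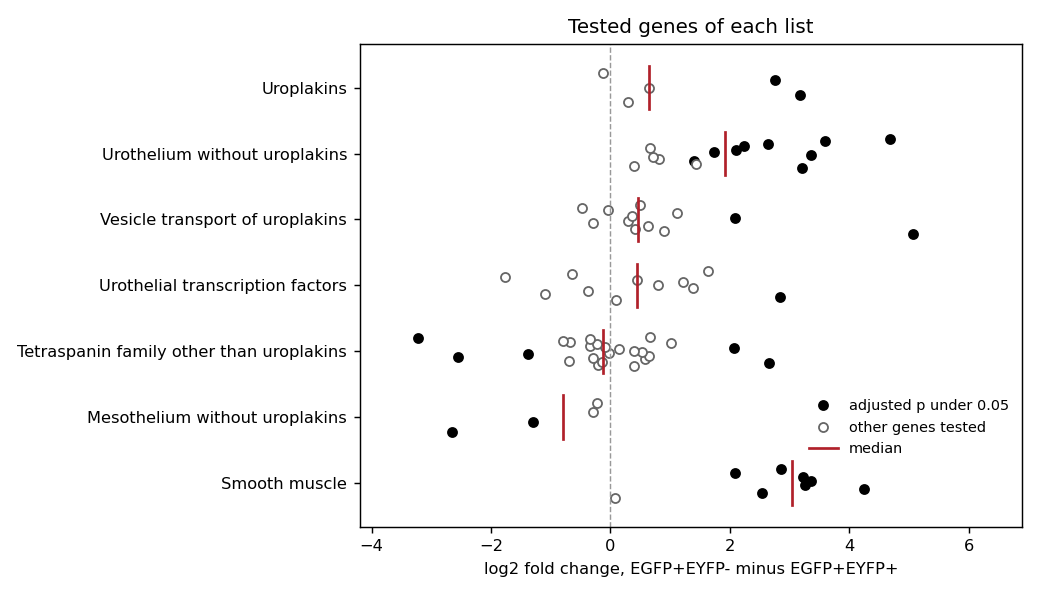
Log2 fold change (horizontal axis, EGFP+EYFP- minus EGFP+EYFP+) of each tested gene of the uroplakins and of 6 lists, filled where the adjusted p was under 0.05, with a line at each median. Urothelium (median 1.92) and smooth muscle (median 3.04) genes lie mostly to the right, and the 4 tested mesothelium genes (median -0.79) lie to the left.

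Markers of mesothelium were mostly dim. Of 11 on the array, 7 fell below the filter (Msln, Lrrn4, Bnc1, Calb2, Gpm6a, Muc16 and Rspo1). Msln, mesothelin, read 94.8, 36.1 and 23.1 in EGFP+EYFP- arrays, against 58.0, 158 and 13.6 in EGFP+EYFP+ arrays, and Lrrn4 read 8.88, 37.4 and 91.3 in EGFP+EYFP- arrays, against 65.0, 113 and 5.58 in EGFP+EYFP+ arrays. Both were highest in EGFP+EYFP+ array 2, as Upk3b was, and so was Calb2 (39). The other dim markers were highest elsewhere. Bnc1 was highest in EGFP+EYFP+ array 3 (127) and Gpm6a in EGFP+EYFP- array 3 (132). Muc16 (92.2) and Rspo1 (62.5) were highest in EGFP+EYFP- array 1. These genes and Wt1 were chosen for naming after their values were seen. Wt1, a transcription factor of mesothelium, read 106, 193 and 193 in EGFP+EYFP- arrays, against 43.0, 344 and 370 in EGFP+EYFP+ arrays, and so was as high in array 3, where Upk3b was lowest, as in array 2.

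Of the 4 mesothelium genes tested, none was higher in EGFP+EYFP- arrays, 2 were lower (1.98% of all genes tested were) and 2 did not pass. Aldh1a2, an enzyme of retinoic acid synthesis, had a log2 fold change in limma of -2.66 (SE 0.33, adjusted p = 0.00119). Nkain4 had -1.29 (SE 0.25, limma adjusted p = 0.0114), and -1.17 (adjusted p = 0.0586) without EGFP+EYFP- array 3. Pdpn, podoplanin, had -0.29 (limma adjusted p = 0.605). The summed signal of the 11 markers lay between 19796 and 21896 in EGFP+EYFP- arrays, against 29109 to 45543 in EGFP+EYFP+ arrays. None was listed at 0. Most of each sum came from Pdpn, Nkain4 and Aldh1a2, which read 23500, 12800 and 8920 in EGFP+EYFP+ array 1. The sums and the count of tested genes thus say little about the dim markers. Whether the tested genes mark mesothelium alone in these cells was not tested. Of the 11, 5 were highest in array 2 among the EGFP+EYFP+ arrays (45.5%, against 40.4% of all genes tested). The part of mesothelial cells in the Upk3b signal of that array was not tested.

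The labelled tissue was checked on 8 smooth muscle markers. All were above the filter level on every array, and 7 were higher past the threshold in EGFP+EYFP- arrays (4.38% of all genes tested were), with a median log2 fold change of 3.04. Actg2, the gene behind the EGFP reporter, had a log2 fold change of 2.54 (limma adjusted p = 0.000246), while the value of Acta2, the gene behind the EYFP reporter, depended on the probe set. Acta2 had 0.07 (limma adjusted p = 0.904) on its brightest probe set, whose suffix marks it as shared between transcripts. It had 4.31 (limma adjusted p = 9.96e-05) on the brightest probe set without such a suffix and 2.48 (limma adjusted p = 0.00155) averaged over its probe sets. In both of these settings all 8 markers were higher past the threshold. On none of these choices of probe set was Acta2 lower in EGFP+EYFP- arrays, though those cells were sorted as negative for its reporter. The cause was not tested. Des (desmin) and Tagln (transgelin) had 3.26 and 2.86. Smooth muscle markers thus moved with the urothelial ones, and 7 of the 8 were highest in array 2 among the EGFP+EYFP+ arrays (40.4% of all genes tested were). Median signal was 152.9 to 198.6 in EGFP+EYFP- arrays and 147.1 to 199.8 in EGFP+EYFP+ arrays, highest in EGFP+EYFP+ array 2.

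The genes most like each uroplakin were found by Pearson's r of log2 signal over the 6 arrays, among 12777 tested genes, as a description. The arrays share their group, so a high r mostly restates a similar difference between groups. For Upk1b they were Filip1 (r = 0.997), Hspb7 (0.996) and Tmod1 (0.995), of which Hspb7 is a small heat shock protein of muscle and Tmod1 a cap of actin filaments. For Upk3a they were Oxnad1 (0.997), Rgs16 (0.989) and Mrps30 (0.986). For Upk2 they were Dlx2 (0.998), Rad52 (0.992) and Cd59a (0.991), and for Upk1a P2rx6 (0.977), Fbf1 (0.974) and Tmem30b (0.964). For Upk3b they were Chst10 (0.991), Fance (0.984) and Mrpl34 (0.983). Averaged over probe sets, r was 0.688 for Filip1, 0.754 for Oxnad1, 0.737 for P2rx6 and 0.069 for Rad52, and at least 0.905 for the other 11.

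An r above 0.95 was reached by 155 genes with Upk1b, 95 with Upk3a, 58 with Upk2, 22 with Upk3b and 8 with Upk1a. Between uroplakins, Upk1b, Upk2 and Upk3a had an r of 0.951 to 0.962 with each other. Upk1a stood apart from them, with 0.557 to Upk1b, 0.528 to its partner Upk2 and 0.529 to Upk3a. Upk3b had 0.219 with Upk1b, 0.256 with Upk2, -0.002 with Upk3a and 0.032 with Upk1a. Chst10, a sulfotransferase, read 261, 264 and 186 in EGFP+EYFP- arrays, against 190, 518 and 117 in EGFP+EYFP+ arrays. It shared the high value in EGFP+EYFP+ array 2 that set the pattern of Upk3b.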

How the data were processed

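Signal intensities as deposited are linear values, 1 for each probe set, from 6 Affymetrix MOE430 arrays. Per the labels' protocols, tissue was digested and sorted by fluorescence, and RNA was amplified in 2 rounds, which starts from the 3' end and can lower probe sets far from it. GCOS is the tool per the submitters' processing notes, with its algorithm not given in the sources used here. Trimmed means (2% off each end) were 1500.01 on all arrays, so the authors' scaling had made the arrays alike and hides any difference in RNA content per cell. Detection calls were not used. The array table names no genome build.

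Samples were grouped by their titles. Probe sets took their names from the platform annotation (34945 of 45037 had 1 symbol, 932 several and 9160 none listed, and 64 controls were left out). An offset of 25.042, the 20th percentile of all values, was added before log2. The brightest probe set stood for a gene, and 13464 genes were tested, those with a mean over 6.82 (the 40th percentile over probe sets), with limma 3.58.1 in R 4.3.3 (lmFit, eBayes with a variance trend). Intervals are at 95%. All 45037 probe sets were fitted likewise, without that filter. Differences within arrays were compared with exact permutation tests. The number of arrays limits the precision. The members, 6 gene lists and the rule for naming genes were chosen with earlier results of these data known. The rule named all uroplakins, Actg2, Acta2, in each list the 3 genes of lowest p plus all that passed if these were 5 or fewer, and for each uroplakin the 3 genes of highest r. On data simulated for 13464 genes, limma found 6% of log2 changes of 1 and 58% of those of 2, with 0 of 64 calls false. Alternatives were other normalizations, offsets, filters and probe set choices, no variance trend, array weights, a block for the replicate number, and each array left out.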

Additional observations from a re-analysis of the deposited data

How the results depend on the processing

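Upk1b and Upk3a stayed past the threshold, higher in EGFP+EYFP- arrays, in the gene fit under all 17 alternatives run, with log2 fold changes of 2.54 to 3.71 and 2.45 to 2.96. Upk2 and Upk1a stayed higher without passing (0.52 to 0.77 and 0.01 to 0.51), but Upk1a was not tested with the filter at the 60th percentile. Upk3b, at -0.12, turned to 0.12 averaged over probe sets, 0.37 on the probe set without a shared suffix and 0.05 with array weights (0.09 in the fit over all probe sets), and ran from -0.76 to 0.78 when 1 array was left out. On 1434237_at that range was -0.50 to 1.60. The change of Upk1a minus Upk3b turned to -0.07 on probe sets without a shared suffix and ran from -0.33 to 1.09 when 1 array was left out, and that of Upk2 ran from -0.01 to 1.28. Where no single array is named the cause was not tested.

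The 857 genes past the threshold became 1345 with array weights and 466 to 1084 when 1 array was left out. The 590 higher in EGFP+EYFP- arrays became 910, and 303 to 736. The 693 probe sets past the threshold became 455 with no variance trend, 242 to 671 when 1 array was left out, and 925 above the 40th percentile. Higher urothelial factors, 1, became 0 with offset 5, with the filter at the 60th percentile or with no variance trend, 2 with offset 100, and 0 to 3 when 1 array was left out, with 0 to 1 lower. Vesicle genes, 2, became 1 with the filter at the 60th percentile, 3 with array weights, and 1 to 3 when 1 array was left out. Higher tetraspanins, 2, became 1 averaged over probe sets and 3 with array weights, and lower ones, 3, became 2 to 4 when 1 array was left out. When 1 array was left out, higher urothelium genes, 9, ranged from 4 to 8, and lower mesothelium genes, 2, from 1 to 2. Acta2, at 0.07, became 4.31 on probe sets without a shared suffix and 2.48 averaged over probe sets (limma adjusted p = 9.96e-05 and 0.00155), where higher smooth muscle genes, 7, became 8, and it ran from -0.06 (without EGFP+EYFP+ array 3) to 0.20 when 1 array was left out. The r of Rad52 with Upk2 was 0.069 averaged over probe sets, -0.273 with offset 100 and -0.213 on probe sets without a shared suffix, and reached -0.717 when 1 array was left out, where another probe set stood for it.

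The labels number the arrays of both groups 1 to 3, but do not say that a number marks a shared litter or day. Deviations of same-numbered arrays correlated at 0.19, 0.051 and 0.024, and the first 2 numbers correlated best with their own. With the replicate block, 1014 genes passed, Upk1b had an adjusted p of 0.00102 and Upk3a of 0.003, vesicle genes numbered 3 and Sytl2 passed (1.11, adjusted p = 0.0469).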

Other observations

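Ehf, an epithelial ETS factor on the list of urothelial factors, read 317, 230 and 616 in EGFP+EYFP- arrays, against 0.98, 2.97 and 1.85 in EGFP+EYFP+ arrays. Its mean over all arrays fell below the filter on dim genes, so it was not among the 11 factors tested. With EGFP+EYFP+ array 2 left out, it was tested and counted among the higher factors. It was chosen for naming after its values were seen. Upk3bl, a relative of Upk3b outside the set described here, read 252, 105 and 109 in EGFP+EYFP- arrays, against 69.7, 136 and 30.6 in EGFP+EYFP+ arrays. Its log2 fold change was 0.84 (limma adjusted p = 0.709 over all probe sets), and it was highest in EGFP+EYFP+ array 2 within that group, as Upk3b was.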
